A study of Drosophila melanogaster with 8 samples.

Results

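The genes described here encode structural proteins of the *Drosophila* basement membrane and the proteins that work beside them: the collagen IV chains Col4a1 and vkg, the collagen-binding protein SPARC, the laminin chains LanA, LanB1 and LanB2, the perlecan gene trol, and Ppn, Glt and Pxn. They are 10 of 11982 genes measured and were taken by name. Ppn, Glt and Pxn had been selected on their differences between knockdown and GFP arrays in these same data, and the other 7 were added as components of the same matrix. The mean level of each exceeded 5.24, the median log2 level among all genes and the limit used here to call a gene expressed, although trol at 5.49 was close to it. The platform annotation assigns 18 probe sets to these genes and none of the 18 to a second gene. Each gene is represented by its probe set of highest mean.

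The basement membrane is a thin extracellular sheet under epithelia and around muscle, nerve and fat body. Laminin trimers assemble first on cell surfaces, collagen IV forms a crosslinked network that gives the sheet its strength, and perlecan, papilin, peroxidasin and other glycoproteins bind to these scaffolds. In the fly much of this matrix is made by hemocytes, the blood cells, and by the fat body, and several of its proteins were first purified from medium conditioned by Kc cells, the line studied here.

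Total RNA of Kc cells, an embryonic cell line of female *Drosophila melanogaster*, was hybridised to 8 Affymetrix arrays. All cells had received double-stranded RNA, directed in the control group against GFP, which the cells lack (GFP, 3 arrays), in the second group against Sxl (Sxl RNAi, 3 arrays), and in the third against both Sxl and Msl2 (double knockdown, 2 arrays). SXL keeps MSL2 from being made in female cells, and the study asked whether its loss would raise expression from the X chromosome through MSL2. All groups came from the same line, with no transgene named and no untreated cells, so that every difference is against cells exposed to another double-stranded RNA. The labels tie each knockdown array to the GFP array that served as its background control, and arrays tied in this way are called a control set. GFP replicate 1 belonged with Sxl RNAi replicate 2 and double knockdown replicate 1 (set 1), GFP replicate 3 with Sxl RNAi replicate 3 and double knockdown replicate 2 (set 3), and GFP replicate 2 with Sxl RNAi replicate 1 only (set 2). What the arrays of a set have in common (a day, a passage or a hybridisation) is not given in the sources used here, and no label says that replicates came from different cultures, so the p-values reflect the spread of these arrays alone, which may be technical.

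The values are log2 summaries made by RMA, and a difference of 1 is a 2-fold difference. Array medians lay between 4.40 and 4.46. Both arrays of control set 2 stood apart: over expressed genes r was 0.988 between them, 0.936 to 0.953 against the rest, and at least 0.968 among the other 6 arrays. As a check of the labels, msl-2 was 1.28 ± 0.13 (SE) above GFP on the log2 scale in Sxl RNAi (limma adjusted p = 5.49e-04) and -0.16 in the double knockdown. It read 4.32 to 4.51 in GFP and 4.13 to 4.16 in the double knockdown, both under the expression limit of 5.24. Between Sxl RNAi and the double knockdown it differed by 1.43 ± 0.15 (SE, limma adjusted p = 0.00398). Sxl itself differed from GFP by -0.51 ± 0.17 (SE) and -0.05, neither past the threshold (limma adjusted p = 0.0934 and 0.941). In the array labelled double knockdown replicate 2, Sxl lay above its control (7.37 against 6.99). The differences of the 10 genes between the double knockdown and GFP are therefore also given without that array. Of 8 hemocyte markers 6 were expressed above that limit, as were 0 of 8 fat body markers, 1 of 4 markers of crystal cells and lamellocytes, 1 of 3 of muscle and 2 of 3 of glia.

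The largest differences among the 10 genes were between control sets rather than between treatments. Collagen IV was low in both arrays of set 2, whatever the treatment. Col4a1, which encodes the alpha1 chain of collagen IV, was at 9.92, 5.70 and 9.83 in the GFP arrays of sets 1, 2 and 3, at 9.67, 6.75 and 10.10 in the Sxl RNAi arrays of those sets, and at 9.88 and 9.91 in the double knockdown arrays of sets 1 and 3. The 6 arrays of sets 1 and 3 thus lay within 9.67 to 10.10, with both arrays of set 2 far below them and without overlap. With treatment as a term in the same fit, Col4a1 was 12.6-fold lower in set 2 than in the mean of sets 1 and 3 (log2 -3.66 ± 0.20 SE, limma adjusted p = 1.37e-06), ranking 7 from the lowest among 5991 expressed genes. Here and in every set 2 contrast below, the SE and p-value come from the residual spread of arrays within sets. Set 2 is a single set, so they do not measure how much control sets vary among themselves. In bulk RNA, fewer cells that express a gene and less RNA of it per cell cannot be told apart.

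The other collagen IV chain moved with it. vkg (viking), which encodes the alpha2 chain, read 9.94, 5.78 and 9.82 with GFP (sets 1, 2 and 3), 9.51, 7.02 and 10.05 with Sxl RNAi (same order), and 9.70 and 9.81 with the double knockdown (sets 1 and 3). Again the groups of arrays did not overlap, and the GFP array was the lower of the pair in set 2. The difference was 10.8-fold (log2 -3.43 ± 0.25 SE, limma adjusted p = 9.24e-06), and vkg ranked 11 from the lowest. Both chains are needed for the collagen IV trimer, and their genes lie side by side on arm 2L with 0 protein-coding genes between them in the RefSeq table. Over the 8 arrays the levels of Col4a1 and vkg correlated at r = 0.998, and at r = 0.986 after the mean of each control set had been removed, as a description over arrays that share control sets and treatments.

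SPARC, a secreted glycoprotein that binds collagen and that fly fat body needs to deposit collagen IV properly, was also lower in set 2. By control set, it read 13.58, 12.23 and 13.37 with GFP, 13.64, 12.55 and 13.59 with Sxl RNAi, and 13.50 and 13.40 (sets 1 and 3) with the double knockdown. The 6 other arrays spanned only 13.37 to 13.64, above both arrays of set 2. It was 2.24-fold lower there than in the other sets (log2 -1.16 ± 0.08 SE, limma adjusted p = 6.75e-06).

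**Figure D1:**
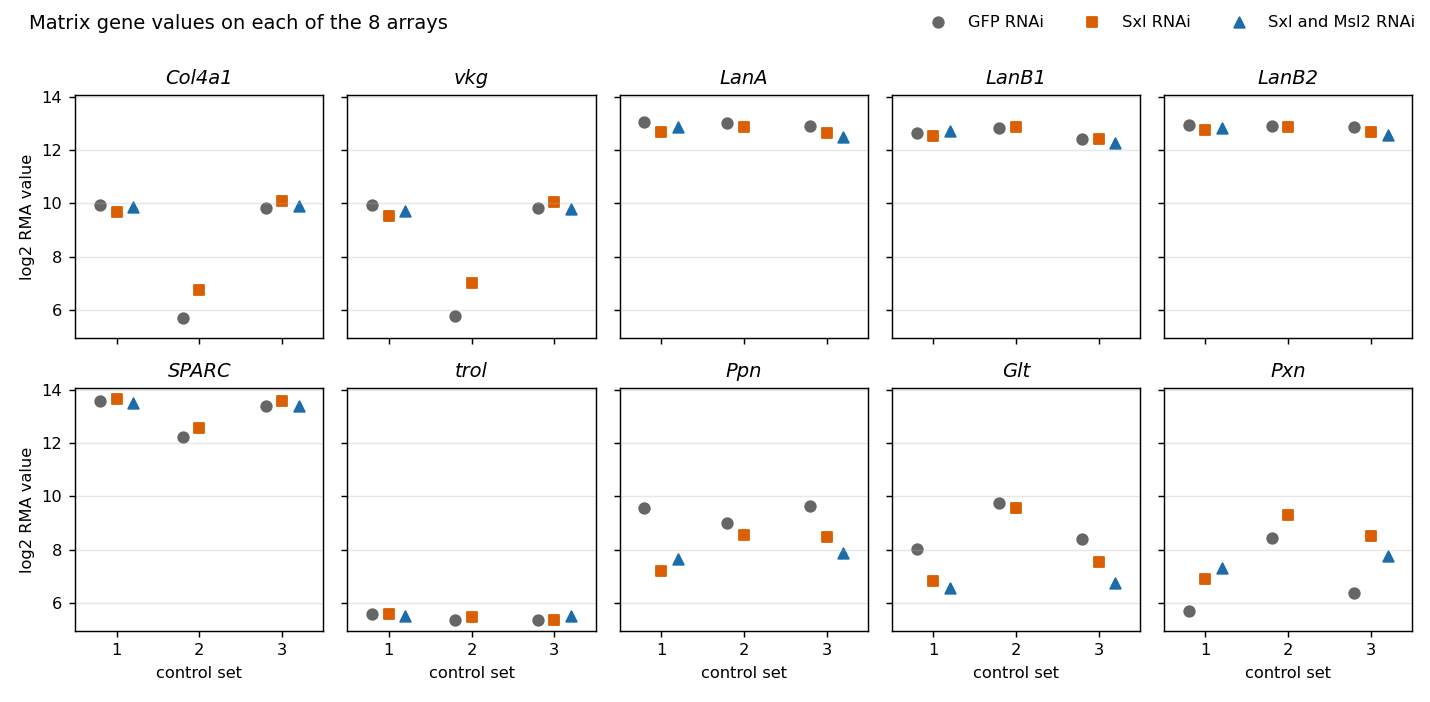
Log2 RMA value (vertical axis) of each of the 10 genes on every array, by control set (horizontal axis), with GFP as grey circles, Sxl RNAi as orange squares and the double knockdown as blue triangles; set 2 holds no double knockdown array. Col4a1, vkg and SPARC are low in set 2, where Col4a1 reads 5.70 and 6.75 against 9.67 to 10.10 elsewhere, Glt and Pxn are high there, and Ppn separates the treatments within each set.

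Glt and Pxn went the opposite way. Glt encodes glutactin, a sulfated basement membrane glycoprotein with a cholinesterase-like domain, and it read 9.74 and 9.55 in set 2 (GFP, then Sxl RNAi) against 6.58 to 8.40 in the other 6 arrays, with no overlap. It was 3.86-fold higher in set 2 (log2 1.95 ± 0.17 SE, limma adjusted p = 3.11e-05). Pxn encodes peroxidasin, a haem peroxidase that forms the sulfilimine crosslinks of collagen IV. Its arrays of set 2 were at 8.45 and 9.30 and those of the other sets between 5.71 and 8.51, an overlap that arises between GFP replicate 2 at 8.45 and Sxl RNAi replicate 3 at 8.51. Once treatment was in the model, Pxn was 3.98-fold higher in set 2 (log2 1.99 ± 0.23 SE, limma adjusted p = 1.83e-04). Among 5991 expressed genes Pxn and Glt ranked 19 and 22 from the highest in this contrast.

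The laminins, by contrast with collagen IV, varied little over the 8 arrays. LanA, the alpha chain of 1 of the fly's laminin trimers, ranged over 0.53 (12.50 to 13.04), LanB1, the beta chain, over 0.61 (12.24 to 12.86), and LanB2, the gamma chain, over 0.40 (12.55 to 12.94), against 4.40 for Col4a1 and 4.27 for vkg. LanB1 was 1.27-fold higher in set 2 (log2 0.34 ± 0.09 SE, limma adjusted p = 0.0188), with 12.82 and 12.86 there against 12.24 to 12.73 elsewhere. That call was lost when the GFP or the Sxl RNAi array of set 2, or the Sxl RNAi array of set 1, was left out (log2 0.39, 0.29 and 0.29, limma adjusted p = 0.0680, 0.194 and 0.0621, with 6.15e-04 to 0.194 over all alternatives). LanA (0.11 ± 0.09 SE) and LanB2 (0.09 ± 0.08 SE) did not pass (limma adjusted p = 0.476 and 0.539), with 95% intervals of -0.09 to 0.30 and -0.09 to 0.27.

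Ppn, which encodes papilin, a large glycoprotein related to the ADAMTS metalloproteases, read 8.99 and 8.55 in set 2 and 7.22 to 9.65 in the others. Its set 2 values sat in the middle of the range, and the difference was 0.04 ± 0.29 (SE, 95% interval -0.60 to 0.69, limma adjusted p = 0.951), and leaving out Sxl RNAi replicate 1 or 2 turned it to -0.62 or -0.31. For trol, which encodes the heparan sulfate proteoglycan perlecan and is the only X-linked gene of the 10, the difference was -0.06 ± 0.08 (SE, limma adjusted p = 0.664). The probe set used for trol read 5.38 to 5.61 over all arrays, and the 7 other probe sets of trol had lower means of 3.37 to 4.80, so a low level of perlecan RNA and a probe set that detects it poorly cannot be told apart.

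In all, 6 of the 10 genes passed the threshold between set 2 and the other sets (3 higher and 3 lower), where 22.5% of all genes did (11.2% in each direction). With a difference of at least 2-fold required as well, 5 of the 10 passed, against 2.7% of all genes, and for 5 of the 10 the array values of set 2 did not overlap those of the other sets, against 23.5% of all genes. The median size of the difference was 0.75 on the log2 scale over the 10 genes, 0.11 over all genes and 0.20 over expressed genes. Of the 10, Ppn, Glt and Pxn had been picked for their differences from GFP, and whether control set values had been looked at when the list was drawn up is not known, so these counts are not evidence on an independently chosen list. For Col4a1, vkg, SPARC, Glt and Pxn the call held under each of 13 alternatives, the highest limma adjusted p being 0.00471, for Pxn.

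**Figure D2:**
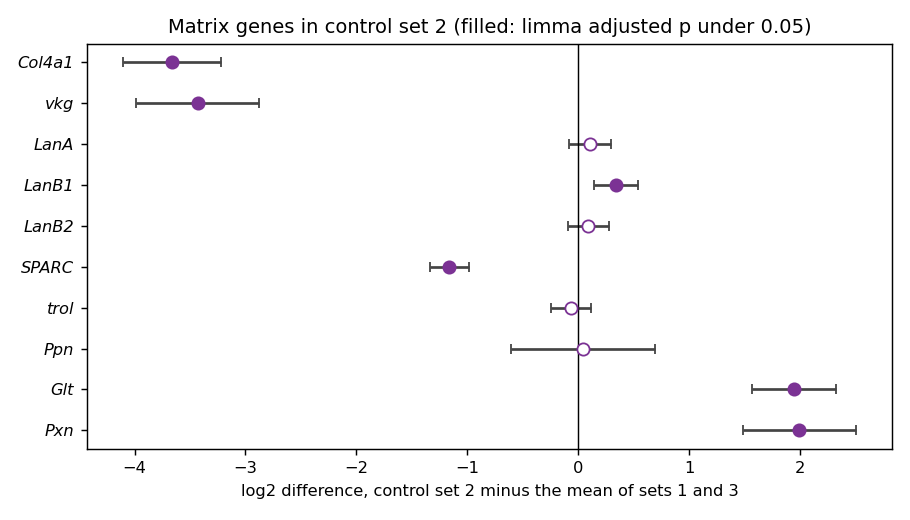
Difference in log2 RMA value between control set 2 and the mean of sets 1 and 3 (horizontal axis) for each gene, from the limma fit with treatment as a term; bars are 95% intervals and filled points have a limma adjusted p under 0.05. Col4a1 at -3.66 and vkg at -3.43 are farthest from 0, SPARC is at -1.16, Glt and Pxn are at 1.95 and 1.99, and LanA, LanB2, trol and Ppn have intervals that include 0.

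Between treatments, the genes that differed most from GFP were Ppn, Glt and Pxn. Since these are the values for which they were chosen, they are given as a description, without p-values. Counts of calls from the common fit are given further on and are not read as evidence for these genes. Ppn was lower than its GFP array in every pair of both knockdowns. In sets 1, 2 and 3 it read 9.57, 8.99 and 9.65 with GFP and 7.22, 8.55 and 8.47 with Sxl RNAi, and with the double knockdown 7.66 (set 1) and 7.87 (set 3), so that all knockdown arrays lay below all GFP arrays. Within sets 1, 2 and 3 the log2 difference of Sxl RNAi from GFP was -2.36, -0.44 and -1.18, and that of the double knockdown was -1.91 in set 1 and -1.78 in set 3. The fitted differences were -1.33 ± 0.27 (SE, 2.51-fold lower) for Sxl RNAi and -1.63 ± 0.32 (SE, 3.09-fold lower) for the double knockdown. The value for Sxl RNAi depended on single arrays, being -0.85 without Sxl RNAi replicate 2 and -1.77 without control set 2.

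Glt was lower in every pair too, although the difference in set 2 was small. By control set, Glt read 8.02, 9.74 and 8.40 with GFP, 6.84, 9.55 and 7.53 with Sxl RNAi, and 6.58 and 6.76 with the double knockdown. The Sxl RNAi array of set 2 therefore lay above both GFP arrays of the other sets and below its own GFP array alone. The pair differences were -1.19, -0.19 and -0.87 in sets 1 to 3 for Sxl RNAi and -1.45 and -1.64 in sets 1 and 3 for the double knockdown. The fitted differences were -0.75 ± 0.16 (SE, 1.68-fold lower) and -1.40 ± 0.19 (SE, 2.64-fold lower). Without control set 2 they were -1.03 and -1.54.

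Pxn was higher than its GFP array in every pair. By control set, its values were 5.71, 8.45 and 6.39 with GFP, 6.92, 9.30 and 8.51 with Sxl RNAi, and 7.33 and 7.78 with the double knockdown. The groups overlapped only through set 2, whose GFP array at 8.45 was higher than every knockdown array of set 1. Pair differences were 1.21, 0.85 and 2.12 in sets 1 to 3 for Sxl RNAi, and 1.62 and 1.39 in sets 1 and 3 for the double knockdown. The fitted differences were 1.39 ± 0.21 (SE, 2.63-fold higher) and 1.37 ± 0.25 (SE, 2.58-fold higher). A second probe set of Pxn stayed between 3.66 and 3.84 on all arrays, with a difference of 0.03 for Sxl RNAi and 0.06 for set 2, so the Pxn values rest on 1 of its 2 probe sets. With both probe sets averaged, the differences from GFP were 0.71 and 0.69.

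Collagen IV, laminins, SPARC and trol gave smaller differences from GFP. For Col4a1 the fitted value was 0.36 ± 0.19 (SE) in Sxl RNAi and for vkg 0.35 ± 0.23 (SE), but the pairs disagreed, with -0.25, 1.05 and 0.28 for Col4a1 and -0.43, 1.24 and 0.24 for vkg in sets 1 to 3. Only in set 2, where collagen IV was low, was the Sxl RNAi array more than 1 above its control, and without that set the values were 0.01 for Col4a1 and -0.10 for vkg. In the double knockdown the fit gave 0.19 ± 0.22 (SE) for Col4a1 and 0.10 ± 0.27 (SE) for vkg. Without the control set as a term these became 1.41 and 1.24, since set 2 holds a GFP array and no double knockdown array. SPARC was 0.20 ± 0.07 (SE) above GFP in Sxl RNAi, with 0.06, 0.32 and 0.22 in the 3 pairs, and 0.00 ± 0.09 (SE) in the double knockdown. Without double knockdown replicate 2 the differences of the double knockdown from GFP were 0.26 for Col4a1, 0.15 for vkg and -0.01 for SPARC.

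Among the laminins LanA was slightly lower than GFP in all pairs, by a log2 difference of -0.34, -0.15 and -0.25 for Sxl RNAi and -0.18 and -0.40 for the double knockdown (fitted -0.25 ± 0.08 SE and -0.26 ± 0.10 SE). LanB2 was lower in all pairs as well, with fitted values of -0.14 ± 0.08 (SE) and -0.18 ± 0.09 (SE). LanB1 had pairs of both signs, and the fit gave -0.03 ± 0.08 (SE) and -0.03 ± 0.10 (SE). Without double knockdown replicate 2 the fitted values of the double knockdown were -0.13 for LanA, -0.09 for LanB2 and 0.12 for LanB1. For trol the pairs of Sxl RNAi were at 0.02, 0.09 and -0.00 and the fit at 0.04 ± 0.07 (SE). In the double knockdown trol was at 0.06 ± 0.09 (SE), and at -0.05 without replicate 2. As the only X-linked gene of the 10 it thus lay close to GFP on a probe set near the expression limit.

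**Figure D3:**
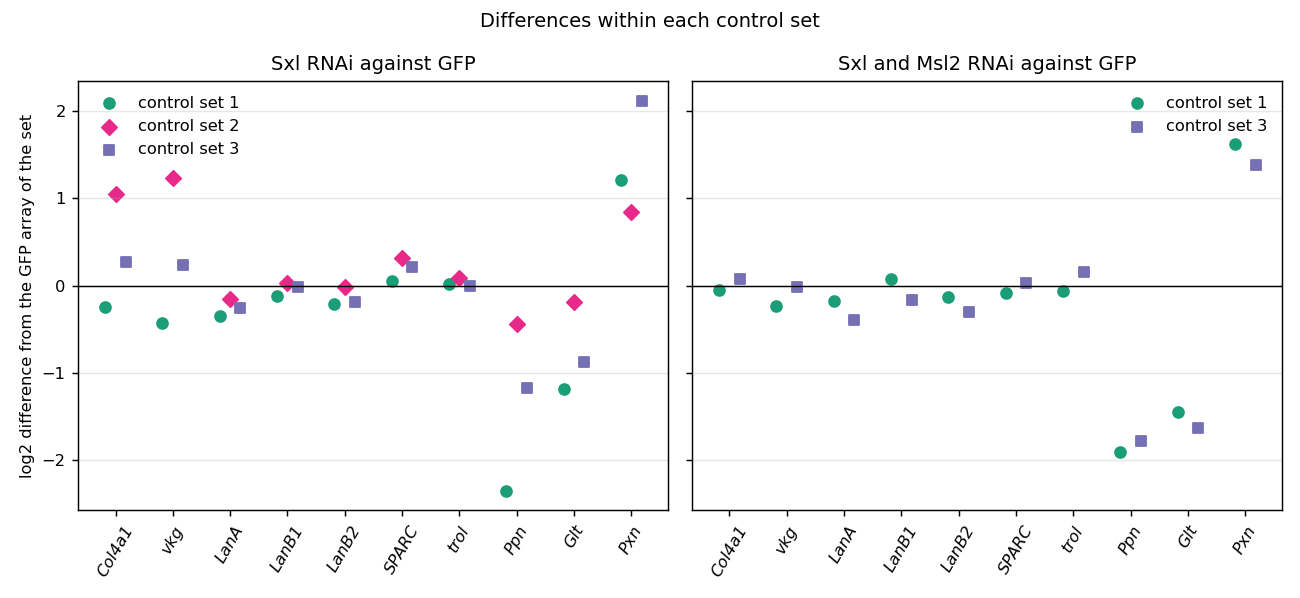
Log2 difference of each knockdown array from the GFP array of its control set (vertical axis) for the 10 genes (horizontal axis), for Sxl RNAi on the left and the double knockdown on the right; colours and shapes mark the control set. Ppn and Glt are below 0 and Pxn above 0 in all pairs, while Col4a1 and vkg are at 1.05 and 1.24 in set 2 and between -0.43 and 0.28 elsewhere.

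In Sxl RNAi against GFP, 3 of the 10 genes were past the threshold (1 higher and 2 lower), beside 10.3% of all genes (5.98% higher and 4.35% lower), and in the double knockdown against GFP 3 of 10 (1 higher and 2 lower), beside 3.79% of all genes (2.19% higher and 1.6% lower). In both cases the 3 were Ppn, Glt and Pxn, whose selection used these differences, and nothing is read from the counts. Both comparisons share the GFP arrays. Over the 10 genes the median difference from GFP was 0.00 for Sxl RNAi and -0.01 for the double knockdown, and over all genes -0.01 and 0.00. Without the control set as a term 0 of the 10 were past the threshold in either comparison. Of all 11982 genes, 30 were past it in Sxl RNAi and 1 in the double knockdown. Without double knockdown replicate 2, the array in which Sxl lay above its control, the differences of the double knockdown from GFP were -1.40 for Ppn, -1.23 for Glt and 1.71 for Pxn.

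Whether the matrix genes differed with Msl2 knockdown in addition to Sxl knockdown was asked by comparing both knockdowns directly. None of the 10 passed limma's test, where 0.776% of all genes did, and 1 of them, Glt, had an unadjusted p under 0.05, where 10.7% of all genes did. Glt was 1.57-fold higher in Sxl RNAi (log2 0.65 ± 0.19 SE, 95% interval 0.23 to 1.07, limma adjusted p = 0.21). For Ppn the difference was 0.30 ± 0.32 (SE, 95% interval -0.42 to 1.02, limma adjusted p = 0.798) and for Pxn 0.03 ± 0.25 (SE, 95% interval -0.54 to 0.59, limma adjusted p = 0.981). Intervals this wide do not show that both knockdowns gave the same level. Without double knockdown replicate 2 the values were 0.48, 0.07 and -0.32 for Glt, Ppn and Pxn. The other 7 genes lay between -0.03 (trol) and 0.25 (vkg). Arrays of this comparison also enter those against GFP.

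The arrays also show which of the 10 genes varied together once each control set's mean had been removed. Ppn and Glt did so (r = 0.943), as did LanA and LanB2 (r = 0.967), and Pxn went against Ppn (r = -0.810) and Glt (r = -0.793). SPARC followed Col4a1 (r = 0.797) and vkg (r = 0.776), whereas Ppn and Col4a1 were unrelated (r = -0.055). LanB1 was less close to LanA (r = 0.647) and LanB2 (r = 0.677) than these were to each other. All are descriptions over 8 arrays that share treatments and control sets. Differences between treatments remain in these values, and Ppn, Glt and Pxn had been chosen on them. The correlations among Ppn, Glt and Pxn therefore follow at least in part from that choice. Among all expressed genes, those most like each gene on this measure were Ald1 for Ppn (r = 0.996), Inos for Glt (r = 0.998), fon for Pxn (r = 0.993), sei for SPARC (r = 0.998), spen for Col4a1 (r = 0.987), Col4a1 for vkg (r = 0.986), E(bx) for LanA (r = 0.997), Gcn2 for LanB1 (r = 0.973), Gos28 for LanB2 (r = 0.9995) and Ranbp16 for trol (r = 0.925), each the highest of 5991 genes. For Col4a1, vkg came next after spen. With 8 arrays and the set means removed, few free values remain per gene. The highest of 5991 such r values is then expected to be high for any gene. The names are therefore a description and no evidence that these genes vary together beyond these arrays.

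Genes around the basement membrane were described from lists of other matrix components, receptors, collagen modification and secretion, remodelling, and cholinesterase-like adhesion proteins, 62 measured of 69 listed. Against GFP, 10 of the 62 changed in Sxl RNAi (2 higher and 8 lower, 16.1%, beside 10.3% of all genes) and 5 in the double knockdown (1 higher and 4 lower, 8.06%, beside 3.79%). With the control set as a random block the counts against GFP were 2 and 0, and without it 0 and 0. Between the knockdowns none of the 62 passed limma's test, beside 0.776% of all genes, and 2 had an unadjusted p under 0.05, beside 10.7% of all genes. Between control set 2 and the rest 23 changed (9 higher and 14 lower, 37.1%, beside 22.5%). The lists, like the 10 genes, were drawn up with earlier results of these data known.

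Of 16 receptor and adhesion genes measured, 4 changed in Sxl RNAi (1 higher and 3 lower), beside 10.3% of all genes. The X-linked integrin subunit gene mew (alphaPS1) rose by 0.62 ± 0.15 (SE, limma adjusted p = 0.0319), and Itgbn (integrin betanu), rhea (talin, which links integrins to actin) and Dg (dystroglycan, a laminin and perlecan receptor) had log2 differences of -0.62, -0.46 and -0.26. Itgbn and Dg had means of 4.71 and 4.55, under the expression limit. Itgbn, rhea and scb (integrin alphaPS3) were past the threshold in the double knockdown (-0.95, -0.60 and -0.50), as were 3.79% of all genes. These calls were fragile: those of mew and Dg were lost without control set 2 (limma adjusted p = 0.125 and 0.151), and those of Itgbn and rhea when 1 GFP or Sxl RNAi array of set 1 or 3 was left out, whichever it was (limma adjusted p = 0.0630 to 0.185). The call of Dg was lost under 15 of 16 alternatives. In the double knockdown the calls of Itgbn, rhea and scb were lost when either of its arrays was left out (limma adjusted p = 0.110 to 0.363).

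Between control sets the receptor genes differed more, 10 of 16 passing (4 higher and 6 lower), beside 22.5% of all genes (11.2% in each direction). Their median was -0.11 against 0.01 over all genes. dlp, which encodes a glypican, a heparan sulfate proteoglycan of the cell surface, read 6.85 and 6.58 in set 2 against 8.35 to 8.76 elsewhere (3.73-fold lower, log2 -1.90 ± 0.09 SE, limma adjusted p = 7.40e-07). scb read 8.06 and 7.71 in set 2 against 5.91 to 6.83 (2.62-fold higher, log2 1.39 ± 0.10 SE, limma adjusted p = 1.04e-05). Neither gene's array values overlapped between set 2 and the rest. rhea was 0.96 higher and mew was lower (-0.97, limma adjusted p = 0.00191), and the integrin beta subunit gene mys was lower as well (-0.33).

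Of 16 genes for collagen modification and secretion, 4 fell in Sxl RNAi against GFP, beside 4.35% of all genes. In the double knockdown none passed limma's test, beside 3.79% of all genes. There 6 had an unadjusted p under 0.05, beside 17% of all genes. The median over the 16 was -0.13 and -0.12, against -0.01 and 0.00 over all genes. PH4alphaEFB, a collagen prolyl 4-hydroxylase subunit, had a log2 difference of -0.47 ± 0.09 (SE, limma adjusted p = 0.0110), and Sec24CD and Sec31 of the vesicle coat that carries cargo out of the endoplasmic reticulum, and KdelR, which returns resident proteins to it, were at -0.36, -0.25 and -0.30. Sec31 lost its call under 14 of 17 alternatives, among them the fit without control set 2 (limma adjusted p = 0.0938). All 4 lost theirs without Sxl RNAi replicate 3 (limma adjusted p = 0.0579 to 0.165). Between Sxl RNAi and the double knockdown none of the 16 passed or had an unadjusted p under 0.05, beside 0.776% and 10.7% of all genes. In control set 2, where both collagen chains were low, Plod, the lysyl hydroxylase of collagen, was lower too (-0.46, limma adjusted p = 0.00251), Sec24AB (0.61) and Sec24CD (0.49) were higher, and PH4alphaEFB was at 0.10 (limma adjusted p = 0.548).

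Among 13 other matrix components, loh, an ADAMTS-like matrix protein and so a relative of Ppn, was the only call in each comparison that had one. Of all genes, 10.3% were called in Sxl RNAi, 3.79% in the double knockdown and 22.5% in control set 2. By control set, loh read 6.60, 5.75 and 7.50 with GFP, 6.00, 5.21 and 6.46 with Sxl RNAi, and 6.01 and 6.71 with the double knockdown. Like Ppn it was lower than its control in every pair, with a log2 difference of -0.72 ± 0.10 (SE, limma adjusted p = 0.00214) in Sxl RNAi and -0.64 ± 0.11 (SE, limma adjusted p = 0.0166) in the double knockdown. Unlike Ppn, it was also lower in control set 2 (-1.16 ± 0.10 SE, limma adjusted p = 3.81e-05). The call in Sxl RNAi held without any single array but was lost with the control set as a random block (limma adjusted p = 0.215). That in the double knockdown was lost without either of its arrays (limma adjusted p = 0.183 and 0.147) and without the GFP array of set 1 or of set 3 (limma adjusted p = 0.0687 and 0.0694).

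Of 11 remodelling genes 1 was called in each comparison with GFP, beside 10.3% of all genes in Sxl RNAi and 3.79% in the double knockdown. It was the X-linked protease gene AdamTS-B, which changed by 0.60 ± 0.08 (SE, limma adjusted p = 0.00175) in Sxl RNAi and 0.63 ± 0.09 (SE, limma adjusted p = 0.00812) in the double knockdown. The second call was lost without either double knockdown array (limma adjusted p = 0.135 and 0.0712) and without GFP replicate 1 (limma adjusted p = 0.0591). In control set 2, 7 of the 11 changed (3 higher and 4 lower), beside 22.5% of all genes. Among them were the peptidase gene Ance (1.08, limma adjusted p = 8.61e-06) and the matrix metalloprotease gene Mmp2 (-0.71, limma adjusted p = 1.39e-04), the latter at a mean of 4.71, under the expression limit. Of 6 genes for cholinesterase-like adhesion proteins, the family to which Glt's domain belongs, only Gli (gliotactin) changed. It was lower in set 2 (-1.27 ± 0.12 SE, limma adjusted p = 5.97e-05), where 22.5% of all genes were called.

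**Figure D4:**
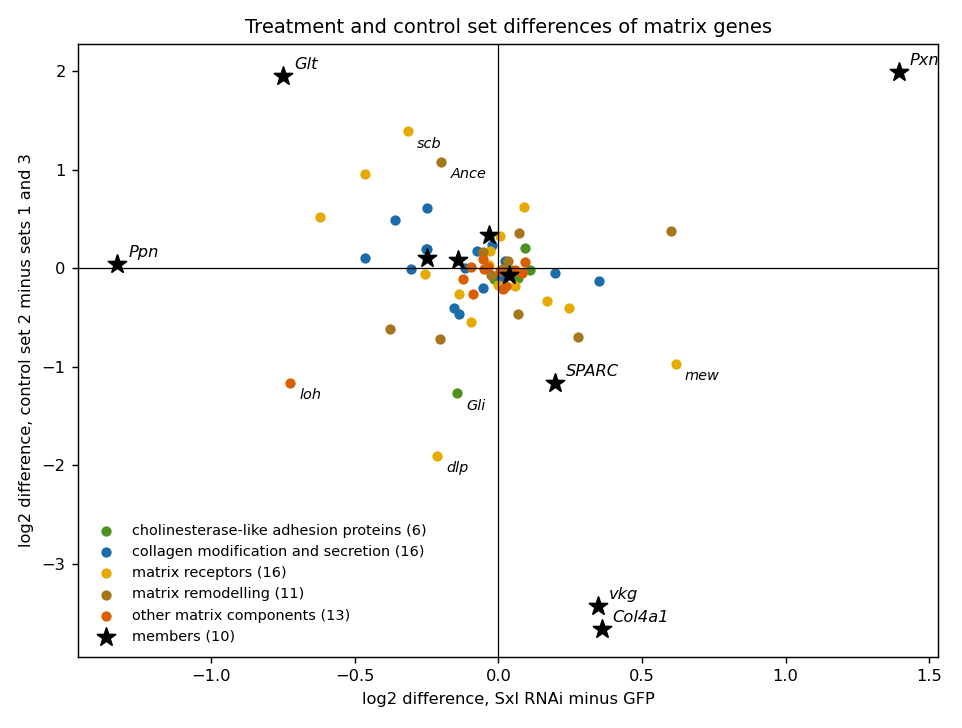
Log2 difference between Sxl RNAi and GFP (horizontal axis) against that between control set 2 and sets 1 and 3 (vertical axis) for the 10 basement membrane genes (stars) and 62 related genes (points, coloured by list with the number measured). Ppn (-1.33, 0.04) lies far out on the horizontal axis alone, Col4a1 (0.36, -3.66) and vkg (0.35, -3.43) on the vertical one, and Pxn (1.39, 1.99) and Glt (-0.75, 1.95) on both.

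Hemocyte markers differed between the control sets as well, in both directions. Of 8 measured, 4 were higher in set 2 and 2 lower, beside 11.2% of all genes in each direction. He (hemese, a hemocyte surface protein) read 10.56 and 10.39 in set 2 against 6.08 to 8.04 elsewhere (9.77-fold higher, limma adjusted p = 7.67e-06) and the phagocytosis receptor gene NimC1 was 2.73-fold higher (limma adjusted p = 7.85e-05), whereas eater, another phagocytosis receptor gene, was 3.94-fold lower (limma adjusted p = 9.24e-06). NimC1 had a mean of 4.97 over all arrays, under the expression limit, and of 6.11 in set 2. The summed linear level of the 8 markers, leaving out the 10 genes, was 8083 to 8335 in set 2 and 4629 to 5881 in the other 6 arrays. Col4a1, vkg, Pxn, Ppn and Glt are hemocyte markers too and were left out of the 8. Of these, Col4a1 and vkg were lower in set 2, Pxn and Glt higher, and Ppn was not called. The sum is weighted towards probe sets of high signal and does not show the fall of eater. In Sxl RNAi against GFP only He passed (log2 -1.02 ± 0.22 SE, limma adjusted p = 0.0167), beside 10.3% of all genes. That call was lost when any single GFP or Sxl RNAi array of set 1 or 3 was left out (limma adjusted p = 0.0686 to 0.0885). The part of these markers in the differences of the matrix genes was not tested.

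Markers of the other matrix-producing tissue, the fat body, gave no such pattern: their summed level was 164 to 179 on all 8 arrays, each of the 8 was under the expression limit, and none passed in any comparison, with 1 at an unadjusted p under 0.05 in each. Crystal cell and lamellocyte markers summed to 102 to 130, with no call among 4 and none at an unadjusted p under 0.05. The 3 muscle markers measured summed to 66.0 to 99.2, with sls and Prm lower in set 2 (-0.41 and -0.41, limma adjusted p = 0.0135 and 0.0214). The mean of sls was 4.31, under the expression limit, and that of Prm was 5.53, close to it. The call of sls was lost without GFP replicate 2 and that of Prm without any 1 of 4 arrays (limma adjusted p up to 0.186 and 0.205). Of the 3 glia markers, loco was lower in set 2 (-0.58, limma adjusted p = 5.65e-04) and the X-linked gene moody was higher in Sxl RNAi (1.28 ± 0.20 SE, limma adjusted p = 0.00385). Of all genes, 10.3% were called in Sxl RNAi, 3.79% in the double knockdown, 0.776% between the knockdowns and 22.5% in set 2. Those with an unadjusted p under 0.05 were 21.9%, 17%, 10.7% and 32.1%, in that order.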

How the data were processed

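Expression was measured on 8 Affymetrix arrays, and the deposited log2 values were used as they stand. They are probe set summaries from RMA, run by the authors, which removes background, brings the arrays to a common distribution and combines the probes of a set. No source used here gives its version. This makes all changes relative to the other genes. For arrays, their number limits the precision. Of 18952 probe sets, 183 array controls were left out, and of the rest 13647 had 1 symbol in the platform annotation, 402 several and 4720 none. Only those with 1 symbol were tested, the probe set of highest mean standing for its gene (11982 genes, 1094 with more than 1 probe set, 11893 matched to the RefSeq table of Release 6 plus ISO1 MT, used for names, arms and neighbours only). No dim gene was removed. Levels are not compared between genes, since probes differ in response.

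Groups and control sets came from the labels. limma 3.58.1 (lmFit and eBayes, R 4.3.3) was fitted to the 8 arrays, the terms being group and control set (3 residual and 6.53 prior degrees of freedom). Two-sided p-values had Benjamini-Hochberg adjustment across all genes, with a threshold of 0.05. The control set contrast is set 2 minus the mean of sets 1 and 3 from the same fit. Its SE and p-value rest on the residual spread within sets, and the spread between sets does not enter them. Deviations from group means over expressed genes showed that Sxl RNAi and GFP arrays of 1 control set deviated together (r = 0.824 to 0.893), whereas those with only the title's replicate number in common did not for numbers 1 and 2 (r = -0.626 and -0.738).

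The 10 genes, the lists and the marker sets were chosen with earlier results of these data known. The text names all 10 genes, and from each list up to 4 genes past the threshold in Sxl RNAi against GFP, by size, up to 2 more past it elsewhere, or the 2 of highest mean where none passed; mys was named after its value was seen. Likeness is Pearson's r of deviations from control set means. Alternatives were the block left out, replaced or random, probe sets averaged, dim genes removed, arrays centred on autosomal genes, a mean-variance trend, and arrays or sets left out. The model was tested on simulated data. All value columns were mapped to samples. Sequences were not used here.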

Additional observations from a re-analysis of the deposited data

How the results depend on the processing

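Between control set 2 and the other sets 6 of the 10 genes were called under each alternative except single arrays left out (5 to 6), and 21 to 26 of the 62 related genes in place of 23 (18 to 23 with single arrays left out). The count over all genes there, 2693, was 1455 to 2550 with 1 array left out, the lowest without Sxl RNAi replicate 1. Of the tested differences, sign changes were followed for the 10 genes between control sets, and between the knockdowns for Ppn, Glt and Pxn only. Among these, the differences that changed sign had not passed the threshold. For Ppn in set 2 they were -0.62 without Sxl RNAi replicate 1 and -0.31 when Sxl RNAi replicate 2 was left out (range over single arrays left out -0.62 to 0.71). For LanB2 in set 2 the difference was -0.0037 without Sxl RNAi replicate 1 (range likewise -0.0037 to 0.18). For Pxn between the knockdowns it was -0.45 without Sxl RNAi replicate 3 and -0.32 without double knockdown replicate 2 (range likewise -0.45 to 0.37, and up to 0.74 over all alternatives).

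Counts against GFP depended on the control set as a block. With no replicate block, Sxl RNAi against GFP gave 30 genes in place of 1237, 0 of the 10 in place of 3 and 0 of the 62 in place of 10, the double knockdown against GFP gave 1 in place of 454, 0 in place of 3 and 0 in place of 5, and both knockdowns compared gave 1 in place of 93. With the title's replicate number as the replicate block these counts were 0, 0, 0, 1, 0, 0 and 1, and loh in the double knockdown turned from -0.64 to 0.11. With the control set as a random block they were 402, 0, 2, 35, 0, 0 and 26. With a mean-variance trend Sxl RNAi gave 5 of the 10, the double knockdown 837 genes and 10 of the 62, and both knockdowns compared 210 genes, or 157 with arrays centred on autosomal genes. With 1 array left out, Sxl RNAi against GFP gave 514 to 1033 genes, 1 to 3 of the 10 and 2 to 8 of the 62, the double knockdown 20 to 615, 0 to 3 and 0 to 5, and both knockdowns compared 6 to 88 genes. The 1 of 10 in Sxl RNAi was without GFP replicate 1 or 3. None of the 10 or the 62 was called between the knockdowns under any setting. Without the double knockdown arrays, an alternative chosen after seeing the data, 3 of the 10 were called in Sxl RNAi and 6 in set 2. The cause of these changes was not tested, beyond the fewer arrays in those that leave arrays out. All 62 related genes and the 10 rest on 1 probe set each, and values near the median of all genes may understate a difference.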
